A study of Mus musculus with 5 samples.

Results

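Igf1, Igfbp1 and Igfbp2, the hepatic insulin-like growth factor gene and genes of 2 proteins that bind its product, were examined in mouse hepatocytes from the fed state to prolonged fasting. They are 3 of the 64 genes of a targeted single-cell RNA panel. They were taken by name and not by a cut on a measured value, but with earlier results of these data known. The hepatocytes came from male mice of the C57BL/6J strain, wild-type and fed normal chow, with 1 library at each of 5 times. Mice had been trained for 3 days on a cycle of 16 h without food and 8 h with food, and received food and 20% sucrose water on the day itself. The fed library (0 h) was taken at clock hour 13, when the mice had been eating for 4 h. The fasted ones followed 8, 16, 24 and 30 h later, at clock hours 21, 5, 13 and 19. Hours of fasting and clock hour moved together, except that 24 h and 0 h share the clock hour. The sources used here do not give the age of the mice or their number per library. Where 5 values are listed below they are in time order from 0 to 30 h, and where 4 are listed they belong to the fasted libraries in that order. With no replicate library there was no test, and every interval below is a 95% interval for counting error only.

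IGF1 made by hepatocytes is the main circulating form of this growth factor, and its gene is driven by growth hormone and by nutrient supply. Most IGF1 in blood is carried by binding proteins that set how much can reach its receptor. Igfbp1 encodes the binding protein that is acutely repressed by insulin and induced in fasting through FOXO factors, glucocorticoids and stress pathways. Igfbp2 encodes a second hepatic binding protein, also held down by insulin and growth hormone.

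The members lie on different chromosomes of GRCm38. Igf1 (ENSMUSG00000020053) spans chromosome 10 from 87858265 to 87937042, Igfbp1 (ENSMUSG00000020429) chromosome 11 from 7197782 to 7202546, and Igfbp2 (ENSMUSG00000039323) chromosome 1 from 72824503 to 72852474. All 3 are protein-coding genes on the plus strand, and 0 of them had an exon overlapped by another gene on that strand. The 150 bases before each RefSeq start (GRCm38.p6, plus strand) are printed because Igfbp1 differed most from the fed library and Igf1 least in 3 of the 4 fasted libraries. Capitals mark any of 6 searched motifs. They were the insulin response element core CAAAACA, the FOXO and FOXA motif TGTTTAC, the HNF1 palindrome, the glucocorticoid receptor motif AGAACA, the cAMP response element TGACGTCA and the STAT5 motif TTCNNNGAA, each on both strands.
Igf1, chr10:87860961-87861110: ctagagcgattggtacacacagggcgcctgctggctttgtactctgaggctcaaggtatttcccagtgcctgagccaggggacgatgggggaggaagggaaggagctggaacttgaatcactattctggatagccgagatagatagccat
Igfbp1, chr11:7197637-7197786: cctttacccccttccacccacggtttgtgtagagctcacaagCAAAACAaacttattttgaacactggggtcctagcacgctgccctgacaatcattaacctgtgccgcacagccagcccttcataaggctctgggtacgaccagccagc
Igfbp2, chr1:72824330-72824479: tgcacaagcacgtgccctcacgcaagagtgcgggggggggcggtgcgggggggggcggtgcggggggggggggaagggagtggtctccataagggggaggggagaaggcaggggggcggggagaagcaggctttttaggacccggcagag
The Igfbp1 window held CAAAACA, beginning 108 bases before the start. Of 32851 RefSeq promoter windows of 250 bases before the start, 5.56% held that motif. No searched motif was found in the Igf1 window out to 250 bases. The only Igf1 start searched, 87861111, lies inside the gene span given above, so the window is not upstream of 87858265. The first of 2 Igfbp2 starts, the one printed, had AGAACA beginning 206 bases before the start, a motif held by 16.1% of promoters. A match is a match of letters and not a measured binding site.

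The libraries held 7208 to 12153 barcodes, 47473 in all, and 3979629 to 11288725 panel UMIs (counted molecules). Median UMIs per barcode were 1033, 219, 651, 1202.5 and 1149. The shallow library was that of 8 h, where 47.8% of barcodes had under 200 UMIs. The hepatocyte label could be checked on Alb, the albumin gene and the only one of 5 listed hepatocyte markers in the panel, which took 69.4% to 71.8% of panel UMIs in every library. Of 16 listed markers of other liver cells the panel held 6, and none of these 6 was at 0 in any library. Their summed level was 76.2, 220, 34.4, 43.2 and 29.7 CPM (UMIs per 1000000 panel UMIs of the library), so the 8 h library was both the shallowest and the richest in them. Across libraries, 238 barcode sequences occurred more than once.

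Igf1 was lower than fed at 8 h and highest at 30 h. Its levels were 11550, 7514, 10707, 10347 and 21227 CPM, with intervals of 11473 to 11627 in the fed library and 21142 to 21312 in the last. The 0, 16 and 24 h libraries thus lay within 1.12-fold of each other, with 8 h below and 30 h above all of them. Log2 ratios to the fed library were -0.62, -0.11, -0.16 and 0.88, the last a 1.84-fold higher level (0.87 to 0.89 on the log2 scale). Between 24 and 30 h Igf1 stood 2.05-fold higher, the 5th highest ratio of 55 genes tested (at least 100 UMIs in both libraries together). In that step 9.09% of genes tested were over 2-fold higher, and of the 3 members only Igf1 was. The small differences of 16 and 24 h from the fed library depended on the scale: with UMIs per barcode the 24 h log2 ratio was 0.060, and with median-of-ratios scaling the 16 h ratio was 0.020.

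Igfbp1 was higher in every fasted library than in the fed one, and its level alternated between libraries. Its levels were 246 CPM (235 to 257), 5841 (5766 to 5916), 1459 (1429 to 1490), 3952 (3914 to 3990) and 2432 (2403 to 2461). The order from lowest to highest was 0, 16, 30, 24 and 8 h, with no overlap of counting intervals between neighbours. The fasted libraries were 23.8-fold, 5.94-fold, 16.1-fold and 9.90-fold above the fed one. Of all genes tested, 17.9%, 10.7%, 8.93% and 16.1% were over 2-fold higher in these comparisons. Igfbp1 ranked 1 of 56 genes at 24 h, the comparison that shares the clock hour, and 2 in the others. Between neighbouring libraries the log2 ratio was -2.00 from 8 to 16 h, when 30.4% of genes tested were over 2-fold lower. It was 1.44 from 16 to 24 h (2.71-fold), when 7.27% were over 2-fold higher, and -0.70 from 24 to 30 h, a step in which 5.45% were over 2-fold lower. The 8 h library also had the lowest depth and the highest level of other-cell genes, and the part of the latter was not tested. In barcodes with 300 or more UMIs the 8 h log2 ratio was 4.45, against 4.57 in all barcodes.

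From 8 h onward Igfbp2 was higher at each time than at the one before. Its levels were 3961 CPM (3916 to 4006), 3207 (3152 to 3263), 5768 (5708 to 5828), 8094 (8040 to 8149) and 9669 (9611 to 9726). Only 8 h lay below the fed library, and no intervals overlapped. The log2 ratio to 0 h was -0.30, 0.54, 1.03 and 1.29, so Igfbp2 was 2.04-fold above fed at 24 h and 2.44-fold at 30 h. At those times 2 of the 3 members, Igfbp1 and Igfbp2, were over 2-fold higher than fed, as were 8.93% of genes tested at 24 h and 16.1% at 30 h. With median-of-ratios scaling Igf1 (1.03 on the log2 scale) was so too at 30 h, making 3 members. Igfbp2 ranked 5 of 56 genes at 24 h and 8 of 56 at 30 h. At 16 h the direction depended on the scale, the log2 ratio being -0.14 with UMIs per barcode. At 8 h that scale put Igf1 (-2.30) and Igfbp2 (-1.98) over 2-fold below fed, where the median gene shifted by -1.68. The panel's median log2 ratio to 0 h over the 56 genes was 0.047, -0.15, -0.12 and -0.071.

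**Figure D1:**
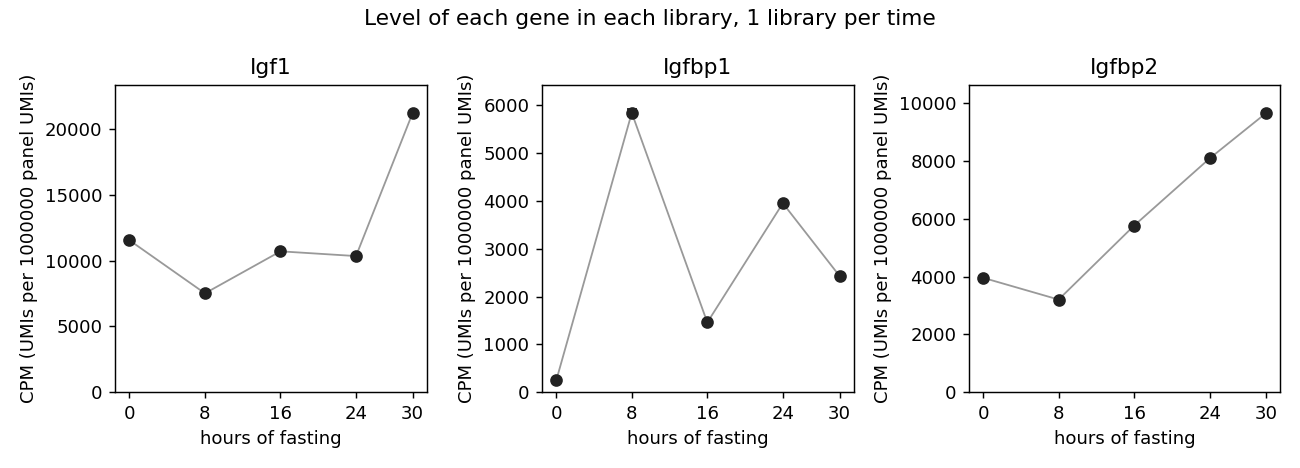
Level of each gene in CPM (UMIs per 1000000 panel UMIs; linear axes from 0) against hours of fasting. Points are single libraries and bars, mostly smaller than the points, are 95% Poisson intervals; Igf1 peaks at 30 h (21227), Igfbp1 at 8 h (5841) with a second high value at 24 h (3952), and Igfbp2 is highest at 30 h (9669).

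Ratios between members do not depend on the denominator of a library. Probes can capture each gene with a different efficiency, so only changes of these ratios are read. For every 100 Igf1 UMIs there were 2.13 Igfbp1 UMIs (2.03 to 2.23) in the fed library and 77.7 (76.4 to 79.1), 13.6 (13.3 to 13.9), 38.2 (37.8 to 38.6) and 11.5 (11.3 to 11.6) in the fasted ones. The ratio was therefore 36.5 times the fed value at 8 h and 5.39 times at 30 h, the smallest of the fasted values. Igfbp2 UMIs per 100 Igf1 UMIs were 34.3, 42.7, 53.9, 78.2 (77.5 to 78.9) and 45.5 (45.2 to 45.9). That ratio was highest at 24 h, at 2.28 times the fed value, and stood at 1.33 times at 30 h although the Igfbp2 level itself was highest there. Between the binding proteins, Igfbp1 UMIs per 100 Igfbp2 UMIs were 6.20, 182, 25.3, 48.8 and 25.2. At 16 and 30 h they were equal within counting error.

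Other genes of the pathways around these members were few in the panel. Of 18 listed insulin and FOXO response genes it held 4. In every comparison with 0 h, Pck1, the gluconeogenic enzyme gene, was over 2-fold higher and Srebf1, the insulin-induced lipogenic transcription factor gene, was over 2-fold lower. The share of all genes tested that were over 2-fold lower was 12.5%, 28.6%, 23.2% and 26.8%. Pck1 had log2 ratios of 1.58, 2.06, 1.66 and 2.58. Srebf1 had -4.77, -2.90, -3.92 and -4.26, nearest to fed at 16 h, where Igfbp1 was lowest of the fasted libraries. G6pc, the gene of glucose-6-phosphatase, had 0.98, 0.94, 0.49 and 0.61, in none of them over 2-fold. These values come from 4 libraries sharing 1 fed control and are given side by side.

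Of 15 listed growth hormone and IGF genes the panel held only Igfbp3, the gene of the main IGF carrier in blood, which is made mostly outside hepatocytes. It had 28, 17, 2, 30 and 26 UMIs in the 5 libraries and passed the 100-UMI minimum in no comparison. The amino acid and stress response list had 1 of 6 genes in the panel, Fgf21, a fasting hormone of the liver. Its level was 39.3, 49.3, 83.3, 17.3 and 115 CPM, highest at 30 h and lowest at 24 h, whereas Igfbp1 was higher at 24 h than at 30 h.

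The position along the lobule was read from the ratio of Cyp2e1, a cytochrome P450 gene high near the central vein, to Cyp2f2, a cytochrome P450 gene high near the portal tract. Within each library barcodes were ranked by log2((Cyp2e1 + 1) / (Cyp2f2 + 1)), and the 20% at each end were compared (1442 to 2431 barcodes per end), the Cyp2f2 end and the Cyp2e1 end. For profiles the ranking was cut into 10 equal bins, from 1 at the Cyp2f2 end to 10 at the Cyp2e1 end. An end is a range of this score and not a cell type. Within 0.25 log2 units of its border lay 6.06% to 13.9% of barcodes for the Cyp2f2 end and 2.03% to 5.21% for the Cyp2e1 end. Alb was itself lower at the Cyp2e1 end, with log2 ratios of -0.45, -0.37, -0.58, -0.54 and -0.58, and the median gene was higher there by 0.67, 0.66, 0.89, 0.78 and 0.54. Barcodes were shallower toward that end, with median UMIs of 1232, 609, 789, 1422.5 and 1302 in bin 1 and 663, 365, 454, 904.5 and 866 in bin 10. Each zone ratio is also given in CPM of panel UMIs without Alb. That denominator gives Cyp2e1, which the ranking makes high at 1 end, more weight, so a further one leaves out Alb, Cyp2e1 and Cyp2f2 together, added after the other values had been seen.

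Igf1 was nearly level along this axis in CPM and lower at the Cyp2e1 end once Alb was left out. At the Cyp2f2 end its levels were 11512, 7661, 10458, 10291 and 21342 CPM. At the Cyp2e1 end they were 11629, 7149, 12309, 11015 and 20779 CPM. The log2 ratio of the Cyp2e1 end to the Cyp2f2 end, the zone ratio, was 0.015 (-0.019 to 0.048), -0.10, 0.24, 0.098 and -0.039. Without Alb it was -0.76, -0.94, -0.78, -0.97 and -1.03, and without Alb, Cyp2e1 and Cyp2f2 it was -0.61, -0.81, -0.53, -0.61 and -0.54. Relative to the remaining panel genes Igf1 was thus lower at the Cyp2e1 end in every library. In CPM without Alb bin 1 had the highest Igf1 level and bin 10 the lowest in all 5 libraries, 1.89-fold to 2.33-fold apart. In CPM of all panel UMIs the higher 30 h level was present at both ends, 1.85-fold above fed at the Cyp2f2 end and 1.79-fold at the Cyp2e1 end.

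Igfbp1 was higher at the Cyp2e1 end in CPM in all 5 libraries. The Cyp2f2 end had 218, 3514, 1158, 2999 and 1913 CPM, and the Cyp2e1 end 386, 8861, 2161, 6288 and 4202 CPM. The log2 zone ratio was 0.83 (0.62 to 1.04), 1.33 (1.28 to 1.39), 0.90 (0.80 to 0.996), 1.07 (1.02 to 1.11) and 1.14 (1.08 to 1.19). The share of genes tested over 2-fold higher at the Cyp2e1 end was 22.6%, 26.9%, 35.3%, 29.4% and 21.2%, and the share over 2-fold lower was 1.89%, 3.85%, 3.92%, 3.92% and 5.77%. By that measure Igfbp1 was over 2-fold higher at 8, 24 and 30 h. Without Alb the ratio was 0.056, 0.49, -0.12, 0.0025 and 0.14, and without Alb, Cyp2e1 and Cyp2f2 it was 0.20, 0.62, 0.13, 0.36 and 0.63. The direction thus held in all 5 libraries in CPM and with all 3 genes left out, but turned at 16 h with Alb alone left out. The 8 h zone ratio exceeded that of the fed library by 0.51 in CPM (0.30 to 0.72). The ends were also separated differently in these libraries, with Cyp2f2 at 9322 CPM in the fed Cyp2e1 end and 2032 at 8 h. The part of this in the difference was not tested.

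Both ends of the axis had far more Igfbp1 in fasting. At the Cyp2f2 end it was 16.2-fold, 5.32-fold, 13.8-fold and 8.79-fold above fed. At the Cyp2e1 end it was 22.9-fold, 5.60-fold, 16.3-fold and 10.9-fold. The alternation between libraries was thus present at both ends. At 8 h, however, both ends lay below the 23.8-fold of the whole library, and the difference from fed was larger in middle bins. Fed levels were 211 CPM in bin 5, 198 in bin 8 and 452 in bin 10, and those at 8 h were 6876, 8310 and 9138. Bins of the same number did not hold the same range of the score in both libraries. Bin 8 had Cyp2e1 at 7675 CPM and Cyp2f2 at 18180 CPM when fed, against 38960 and 5329 CPM at 8 h. The part of this in the larger difference of middle bins was not tested. At 8 h the middle of the ranking was shallow, with medians of 114 to 139 UMIs per barcode in bins 5 to 9 against 609 in bin 1. Among the 8 h barcodes with 300 or more UMIs, ranked anew, Igfbp1 stood at 3026 CPM in bin 1, 8117 in bin 8 and 9750 in bin 10. The fed library had 219, 221 and 444 CPM in these bins under the same limit.

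Igfbp2 was also higher toward Cyp2e1 in CPM, but from 16 h onward it was highest before the end of the axis. The Cyp2f2 end had 3291, 2295, 4460, 5828 and 7573 CPM, and the Cyp2e1 end 7011, 5248, 9478, 11418 and 14069 CPM. The log2 zone ratio was 1.09 (1.04 to 1.14), 1.19 (1.13 to 1.26), 1.09 (1.04 to 1.13), 0.97 (0.94 to 1.002) and 0.89 (0.87 to 0.92). It was thus over 2-fold at 0, 8 and 16 h. Without Alb it was 0.32, 0.35, 0.068, -0.096 and -0.10, and without Alb, Cyp2e1 and Cyp2f2 it was 0.46, 0.48, 0.32, 0.26 and 0.39. With Alb alone left out the direction was therefore the other way at 24 and 30 h. The zone ratio of Igfbp2 in CPM minus that of the fed library was -0.12 at 24 h (-0.18 to -0.062) and -0.20 at 30 h (-0.25 to -0.14). With wider ends, each of 1 barcode in 3, these differences were 0.13 and 0.080, so they turned with the width of the ends.

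The profile of Igfbp2 over bins had its highest point before the end of the axis in 3 libraries. At 0 and 8 h bin 10 was highest in CPM. In the 16, 24 and 30 h libraries bin 9 had 10338, 12597 and 15937 CPM and bin 10 had 8653, 10275 and 12431 CPM. Without Alb the highest bin was 9, 10, 8, 7 and 8. The lower value in bin 10 in these 3 libraries was thus seen on both scales. For Igfbp1 in CPM the highest bin was 10 in 4 libraries, and at 16 h bin 9 had 2170 CPM and bin 10 had 2152 CPM. Without Alb a low bin 10 was not particular to Igfbp2: it was also the lowest bin for Igfbp1 at 16 and 24 h and for Igf1 in all 5 libraries.

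**Figure D2:**
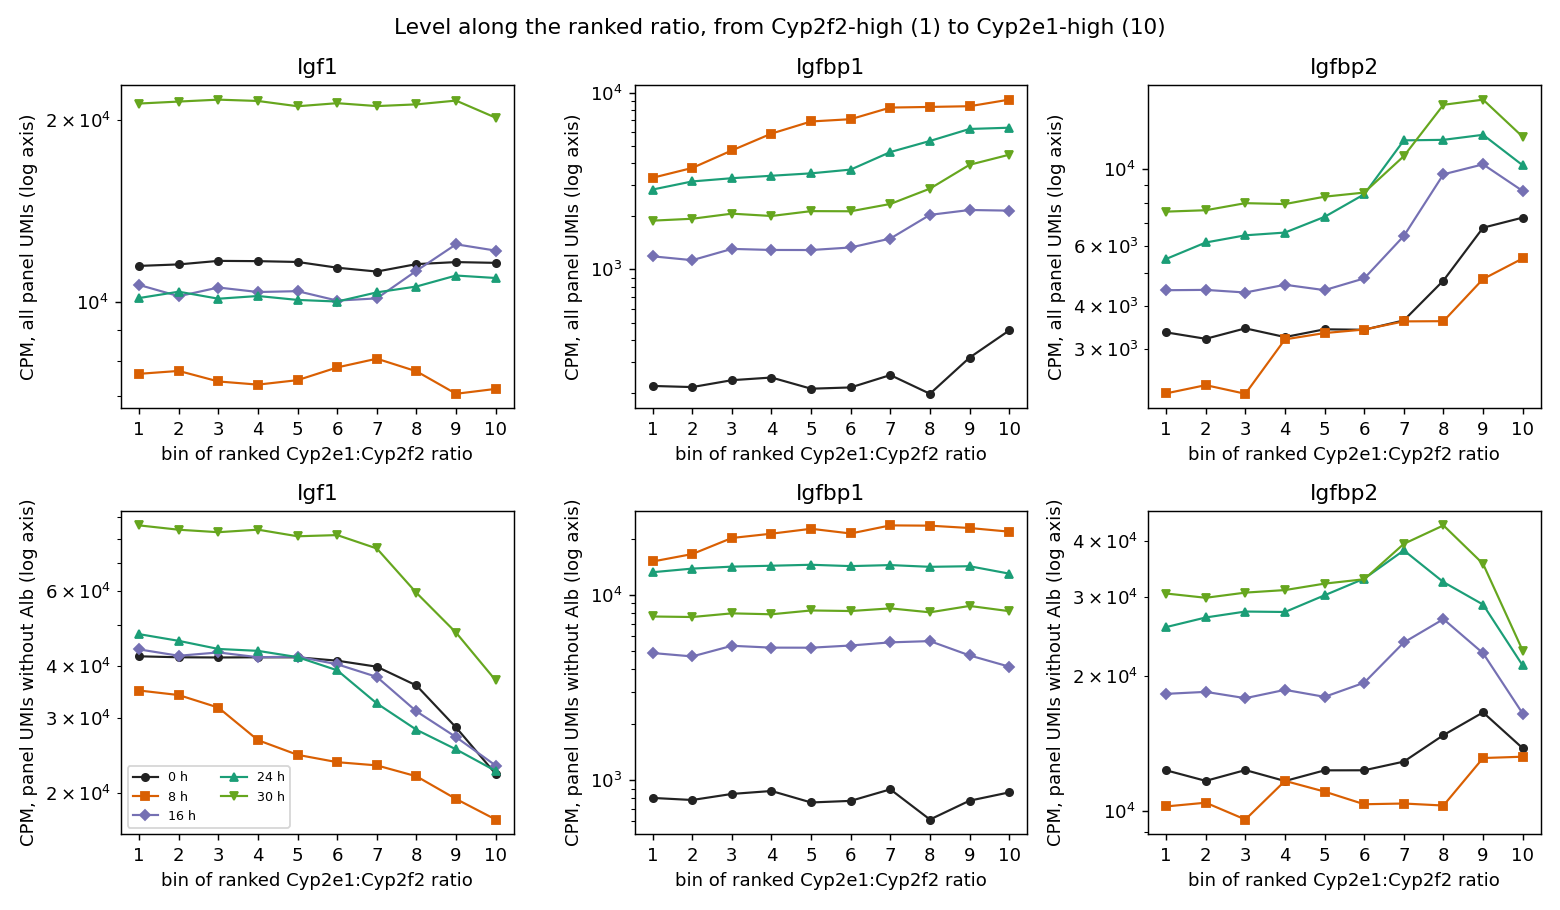
Level of each gene in 10 bins of barcodes ranked by their Cyp2e1 to Cyp2f2 ratio (1, Cyp2f2-high; 10, Cyp2e1-high), 1 line per library, log axes; top row CPM of all panel UMIs, bottom row CPM of panel UMIs without Alb. Igf1 is nearly flat in the top row and lowest in bin 10 of the bottom row, Igfbp1 climbs in the top row and is flatter in the bottom row, and Igfbp2 at 16, 24 and 30 h is lower in bin 10 than before it in both.

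Ratios of members within an end need no denominator. Igfbp1 UMIs per 100 Igf1 UMIs were 1.89, 45.9, 11.1, 29.1 and 8.96 at the Cyp2f2 end and 3.32, 124, 17.6, 57.1 and 20.2 at the Cyp2e1 end. The Cyp2e1 end was thus 1.76-fold, 2.70-fold, 1.59-fold, 1.96-fold and 2.26-fold higher. In log2 these were 0.81 (0.61 to 1.02), 1.43 (1.36 to 1.50), 0.66 (0.56 to 0.77), 0.97 (0.92 to 1.02) and 1.17 (1.12 to 1.23). In every library the binding protein was thus more abundant relative to Igf1 at the Cyp2e1 end, by more than counting error, and most so at 8 h. This direction was not particular to the binding proteins. The median gene was also higher at that end in CPM, by 0.67, 0.66, 0.89, 0.78 and 0.54, while Igf1 was nearly level.

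Igfbp2 UMIs per 100 Igf1 UMIs gave the same direction. They were 28.6, 30.0, 42.7, 56.6 and 35.5 at the Cyp2f2 end and 60.3, 73.4, 77.0, 104 and 67.7 at the Cyp2e1 end, a difference of 1.81-fold to 2.45-fold. Along the bins the ratio at 24 h was 54.1 in bin 1, 84.4 in bin 6, 117 in bin 7 (113 to 121) and 93.7 in bin 10 (90.9 to 96.6). For 30 h it was 35.5 in bin 1, 40.2 in bin 6, 74.1 in bin 9 (72.4 to 75.9) and 61.7 in bin 10 (60.2 to 63.2). The step after bin 6 and the lower value in bin 10 were therefore seen relative to Igf1 as well. Between the binding proteins the ends differed less, and in directions that changed between libraries. The log2 ratio of Igfbp1 to Igfbp2 at the Cyp2e1 end over that at the Cyp2f2 end was -0.26, 0.14, -0.19, 0.098 and 0.24. Its intervals were -0.47 to -0.053, 0.055 to 0.23, -0.29 to -0.081, 0.045 to 0.15 and 0.18 to 0.30. Igfbp1 UMIs per 100 Igfbp2 UMIs were 38.0 in bin 7 and 61.7 in bin 10 at 24 h. At 30 h they were 18.6 in bin 8 and 35.9 in bin 10. The 8 h library went the other way, with 229 in bin 8 and 166 in bin 10.

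**Figure D3:**
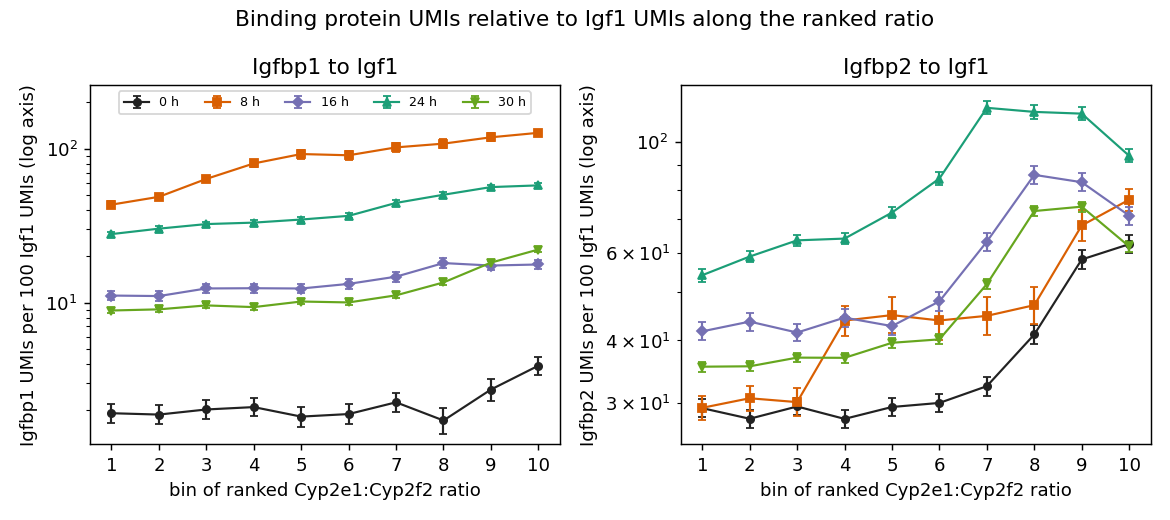
UMIs of Igfbp1 (left) and Igfbp2 (right) per 100 Igf1 UMIs in 10 bins of the ranked Cyp2e1 to Cyp2f2 ratio, log axes, 1 line per library with 95% intervals for counting error. Both ratios are higher toward bin 10 than in bin 1 in every library, and the Igfbp2 ratio at 24 h is highest in bin 7 (117) and lower in bin 10 (93.7).

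For the share of barcodes with a UMI, 200 panel UMIs were drawn at random from every barcode that had as many (thinning), which kept 7156, 6346, 8938, 8554 and 10068 barcodes. Igfbp1 was found in 4.44% (3.98% to 4.95%), 55.3% (54.1% to 56.5%), 24.1% (23.2% to 25.0%), 52.3% (51.2% to 53.4%) and 36.3% (35.3% to 37.2%) of them. Unthinned, over all barcodes, the shares were 17.1%, 66.8%, 51.5%, 91.7% and 81.1%. The order of the thinned shares was that of the CPM levels, whereas the unthinned ones put 24 and 30 h above the shallow 8 h library. At 8 h the barcodes kept were tilted to the Cyp2f2 end, with 1193 of 1215 in bin 1 and 242 of 1215 in bin 8. Igfbp1 was found in 40.4% and 74.8% of those kept in these bins. At 24 h the same bins kept 855 of 856 and 853 of 855. Igfbp2 was found in 50.9%, 43.3%, 62.1%, 74.6% and 79.8% of thinned barcodes and in 89.1%, 47.2%, 87.4%, 97.6% and 98.6% unthinned. For Igf1 the thinned shares were 88.7%, 74.1%, 85.7%, 85.6% and 97.8%, against 99.2%, 75.9%, 97.3%, 98.8% and 99.9% unthinned.

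Barcodes with 3 or more UMIs of the 6 other-cell genes numbered 25, 5, 1, 14 and 15 among those with 200 or more UMIs. In the 0, 24 and 30 h libraries, which had over 10, their Igfbp1 share was 4.00% (interval 0.101% to 20.4%), 78.6% (interval 49.2% to 95.3%) and 6.67% (interval 0.169% to 31.9%), against 4.44%, 52.3% and 36.3% of all barcodes thinned. Median depths were 277, 288 and 914 UMIs against 1037.5, 1203 and 1150. The share of all barcodes thus lay within the interval at 0 and 24 h and above it at 30 h. With so few barcodes, and Alb at 49.4% to 67.1% of UMIs over all barcodes of this kind, they could not stand for cells that lack the genes. How much of the low fed share is free RNA was not tested.

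Which library stood highest in the spread of Igfbp1 between barcodes depended on the measure. The variance of its UMIs over their mean in thinned barcodes, which is near 1 where only sampling acts and otherwise tends to rise with the mean, was 1.15, 2.07, 1.16, 1.23 and 1.27. At 8 h this was the 6th highest of 49 genes, whose median was 1.21. At that time 44.7% of barcodes had no Igfbp1 UMI, 482 barcodes (7.60%) had 4 or more of 200, and the 10% of barcodes with most Igfbp1 held 40.7% of its UMIs. At 24 h, with a nearly equal share of positive barcodes among those kept, 173 barcodes (2.02%) had 4 or more. Variance over mean at 8 h was 1.49 to 2.22 within bins of the ranked ratio, against at most 1.43 in any bin of the other libraries. Within 5 groups of barcodes by depth it was 1.67 to 2.37. Thinned to 100 UMIs the 8 h value was 1.36, and to 500 UMIs it was 4.17, against 1.43 to 1.69 in the others. Relative to the squared mean, the variance in excess of the mean was instead highest in the fed library, at 3.14, with 0.94, 0.54, 0.28 and 0.53 in the fasted ones. At 100 and 500 UMIs the fed library was highest on this measure too (2.49 and 3.48). Among the fasted libraries 8 h was highest at 200 and 500 UMIs (1.19 at 500), while at 100 UMIs 16 h (0.65) was above 8 h (0.55). Depths of 100 and 500 were added after the 200-UMI values had been seen.

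For Igfbp2 variance over mean was 1.33, 1.39, 1.54, 1.44 and 1.55, ranking 10 to 17 in the panel, and for Igf1 it was 1.15, 1.21, 1.22, 1.13 and 1.24. Igf1 ranked 19 to 30. Relative to the squared mean, the excess variance was highest at 8 h for both, at 0.57 for Igfbp2 against 0.27 to 0.45 in the other libraries and at 0.14 for Igf1 against 0.057 to 0.10. At 500 UMIs this held for Igfbp2 (0.62), while for Igf1 16 h was above 8 h (0.088). The higher level of Igf1 at 30 h was spread over many barcodes, 59.2% of them holding 4 or more Igf1 UMIs of 200 at 30 h against 16.5% at 24 h.

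**Figure D4:**
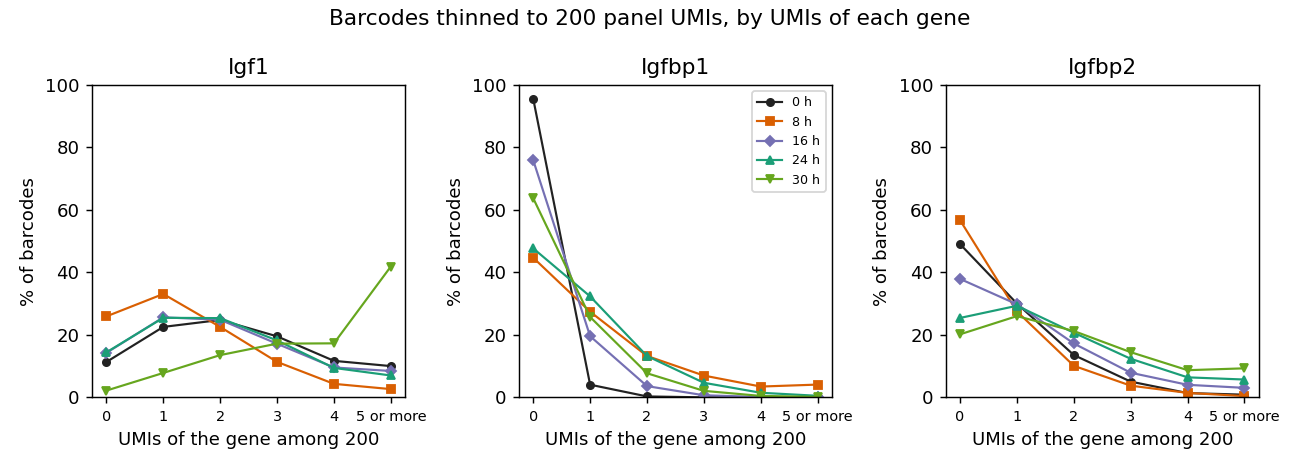
Percentage of barcodes thinned to 200 panel UMIs by the number of UMIs of each gene among the 200, 1 line per library (linear axes; 5 stands for 5 or more). The 8 h and 24 h lines of Igfbp1 start at nearly the same share with 0 UMIs (44.7% and 47.7%), but the 8 h line has more barcodes at 4 and above, and Igf1 at 30 h is shifted to high counts.

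Coupling between members across barcodes was weak in every library. Spearman's rho between Igf1 and Igfbp1 in thinned barcodes was -0.0096, -0.042, 0.000014, 0.031 and 0.0074. Between Igf1 and Igfbp2 it was 0.0079, 0.012, 0.037, 0.017 and 0.024. Between Igfbp1 and Igfbp2 it was 0.015, 0.039, 0.083, 0.11 and 0.063, the highest being at 24 h. All lay between the 5th and 95th percentile of rho over the 1176 to 1275 panel pairs of the same library, which ran from -0.079 to 0.14 at 0 h and from -0.069 to 0.13 at 24 h. Of the 15 values 1 exceeded 0.1 in size, that at 24 h, where 13.3% of panel pairs did. Barcodes of 1 library share their cells' source and depth, so these are descriptions of sparse counts.

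The rho of the binding proteins was smaller within bins of the ranked ratio, at 0.0053, -0.029, 0.046, 0.048 and 0.022. At 24 h barcodes with an Igfbp1 UMI had a mean of 1.81 Igfbp2 UMIs of 200 and those without had 1.50, a ratio of 1.21. For Igf1 against Igfbp2 that ratio was 1.02 to 1.06 over the 5 libraries. For Igf1 against Igfbp1 it was 0.862 to 1.09.

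A larger rho of Igf1 was with Pck1, a pair chosen after its values were seen. It was 0.11, 0.17, 0.11, 0.10 and 0.21, ranking 21 of 1225 pairs at 30 h. At that time barcodes with an Igf1 UMI had a mean of 10.7 Pck1 UMIs of 200 and the 221 barcodes without had 7.66. Within bins of the ranked ratio rho at 30 h was 0.21, and with Alb left out it was 0.096.

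**Figure D5:**
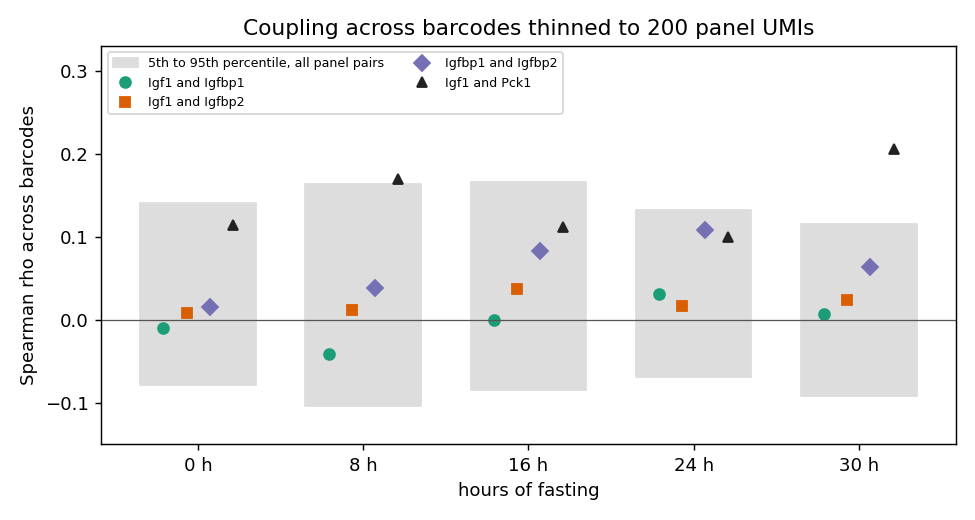
Spearman's rho across barcodes thinned to 200 panel UMIs for the 3 member pairs and for Igf1 with Pck1, by hours of fasting; grey boxes span the 5th to 95th percentile of all panel pairs in that library. The member pairs lie inside the boxes in all 5 libraries, and Igf1 with Pck1 lies above the box at 8 h (0.17) and 30 h (0.21).

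The genes with the most similar pattern were found among the 52 panel genes that reached 100 UMIs in each library. Over the log2 ratios to 0 h of the 4 fasted libraries, the nearest to Igf1 by root mean square distance were Hsd17b13, a lipid droplet enzyme gene (0.31), Dgat1, of triglyceride synthesis (0.32), and Rxra, a nuclear receptor gene (0.40), against a median distance of 0.98. Igfbp1 had no near neighbour: the smallest distances were to Pck1 (1.95), Elovl3, a fatty acid elongase gene (2.12), and Cyp2e1 (2.51), and the median was 3.74. Genes near Igfbp2 included Nr0b2, the bile acid-responsive repressor gene (0.57), and Cyp39a1, of bile acid synthesis (0.61), with a median of 1.17.

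Over the 50 bins of the 5 libraries, each library centred on its own mean log2 level in CPM, Igf1 was nearest to G6pc (0.12), Pck1 (0.14) and Elovl2, a fatty acid elongase gene (0.14), against a median of 0.29. Igfbp1 was nearest to Dgat2, of triglyceride synthesis (0.15), Nr1h3, the liver X receptor gene (0.15), and Mlxipl, the carbohydrate response factor gene (0.16), against 0.28. Igfbp2 was nearest to Scd1, the stearoyl-CoA desaturase gene (0.14), and Cyp2c70, of bile acid hydroxylation (0.15), against 0.30.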

How the data were processed

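Hepatocyte RNA of 5 libraries was tagged at its 3' end by the Chromium method of 10x Genomics and enriched by hybrid capture for a 64-gene panel, per the labels' protocols. The values deposited by the authors were raw UMI counts in 1 matrix, with a table of each barcode's library. Cell Ranger 6.0.1 and build mm10 were named, per the submitters' processing notes. The sources used here do not say how cells were called or doublets removed. No filter was applied to the 47473 barcodes, and no doublet caller was run on so small a panel; the 5% of barcodes with most UMIs were left out as an alternative.

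UMIs were summed per library and divided by its panel UMIs (CPM). As Alb takes most of these, CPM is largely a ratio to Alb. Intervals were exact Poisson for CPM, exact conditional binomial for ratios, normal for differences of log2 ratios and exact Clopper-Pearson for shares, all at 95% and covering counting error only. A call was a 2-fold difference where a gene had 100 or more UMIs over the pair of libraries or ends compared. Tied barcodes in the zone ranking were ordered at random (seed 1). Barcodes were thinned to 200 UMIs for shares, spread and rho. Genes other than the members were named from the pathway lists or as the 3 nearest by pattern; some genes that this rule names are not reported here. The members and lists were chosen with earlier results of these data known. The steps were also run on simulated counts, with results not reported here (Python 3.11.15, numpy 2.4.6, scipy 1.17.1, pandas 2.3.3). That simulation started from the fed profile and gave every library the same zone gradient, so it does not cover differences in zone separation between libraries. Positions came from GENCODE and promoters from RefSeq GRCm38.p6. Alternatives were other denominators and scalings, depth limits, widths of the end groups and thinning depths.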

Additional observations from a re-analysis of the deposited data

Results flagged for a closer look

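At 16 h Igf1 differed from the fed library in opposite directions at both ends of the ranked ratio. Its log2 ratio to 0 h was -0.14 at the Cyp2f2 end (-0.17 to -0.11) and 0.082 at the Cyp2e1 end (0.044 to 0.12), a difference of 0.22. It was flagged because the ends moved in opposite directions, each by more than counting error. The difference was not tested, since each time has 1 library. Without Alb in the denominator it was -0.027, and without Alb, Cyp2e1 and Cyp2f2 it was 0.079.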

How the results depend on the processing

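With 1 library per time no value has a replicate error, and depth limits mainly the 8 h library. No paired analysis was possible because each time point has 1 library. Over all alternatives Igfbp1 stayed above fed in every fasted library, its log2 ratios spanning 2.89 to 4.78, 1.88 to 2.70, 4.01 to 4.23 and 3.30 to 3.46 in time order. Igfbp2 stayed above fed at 24 h (1.001 to 1.25) and 30 h (1.27 to 1.44), and Igf1 at 30 h (0.86 to 1.03). Changes of sign were counted only where the interval of the main value excluded 0. So counted, 4 of 147 alternative level values had the other sign, 17 of 165 zone ratios, 14 of 132 changes of a zone ratio and 6 of 100 rho values. Main values whose interval included 0 also changed sign without being counted. The Igf1 zone ratio at 0 h, for example, was 0.015 in CPM and -0.76 without Alb. Beyond the changes of sign so counted, many other values lay outside the interval of the main value. These were 77 of the level values, 97 of the zone ratios, 50 of the changes of a zone ratio and 38 of the rho values.

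With UMIs per barcode, a scale on which the median gene shifted by -1.68 at 8 h and -0.78 at 16 h, log2 ratios were -0.14 for Igfbp2 at 16 h against 0 h, and for Igf1 0.060 at 24 h against 0 h and 0.86 at 24 h against 16 h. On it 2 members were over 2-fold lower at 8 h, against 0 in CPM. Zone ratios were -0.056 for Igfbp1 at 0 h and -0.55 and -0.66 for Igf1 at 16 and 24 h, over 0 in 0 libraries for Igf1 against 3 in CPM. The change from 0 h was 0.0060 for Igfbp2 at 24 h and 0.12 for Igf1 at 30 h. Median-of-ratios scaling gave Igf1 0.020 at 16 h against 0 h.

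Without Alb, zone ratios were -0.78 and -0.97 for Igf1 at 16 and 24 h, -0.12 for Igfbp1 at 16 h, and -0.096 and -0.10 for Igfbp2 at 24 and 30 h. Changes from 0 h were -0.027 and -0.21 for Igf1 at 16 and 24 h and -0.054 for Igfbp1 at 24 h. Zone ratios over 0 were left in 0 libraries for Igf1 and 3 for Igfbp2. With 300 or more UMIs as well, an alternative added after seeing the data, they were -0.75 and -0.97 for Igf1, -0.019 and -0.053 for Igfbp1 at 0 and 16 h, and -0.093 and -0.070 for Igfbp2, with changes of -0.054 and -0.27 for Igf1. Libraries over 0 then numbered 0 for Igf1, 3 for Igfbp1 and 3 for Igfbp2. Without Alb, Cyp2e1 and Cyp2f2, also added, Igf1 had -0.53 at 16 h and -0.61 at 24 h, changes of -0.0020 at 24 h and 0.068 at 30 h, and 0 libraries over 0.

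Changes from 0 h with the other sign were also found for Igf1 at 30 h without Cyp2e1 and Cyp2f2 (0.11, zone ratio 0.21) and with the ranking thinned (0.0037), for Igf1 at 8 h with the mean of per-barcode CPM (0.017), and for Igfbp2 with wider ends at 24 h (0.13) and 30 h (0.080). For rho, thinning to 50 UMIs without Alb gave -0.065 and -0.017 for Igfbp1 and Igfbp2 at 8 and 30 h, -0.054 and -0.031 for Igf1 and Igfbp2 at 16 and 30 h, and -0.018 for Igf1 and Igfbp1 at 24 h. Within bins Igfbp1 and Igfbp2 had -0.029 at 8 h. Member pairs with a rho over 0.1 in size numbered 1 of 15 at 200 UMIs, 0 at 100, 3 at 500 and 0 within bins. The cause of these shifts was not tested.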
